A study of Mus musculus with 9 samples.

Results

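Imprinted genes are expressed from only 1 of the 2 parental copies, some of them only in certain tissues. Here 50 of them were followed in mouse LSK cells that carried mutant or wild-type DNMT3A or no added enzyme. They were chosen as known members of 21 imprinted domains, 25 listed as expressed from the paternal and 25 from the maternal copy. Whether each is expressed from 1 copy in LSK cells was not measured. The rule uses no measured value, but the list was drawn up with earlier results of these arrays known. A probe was matched through its RefSeq accession for 48 of the 50, and the long noncoding RNAs Rian and H19 had no matched probe. These 48 are among 20660 genes with a probe on the array. The cells of all groups were from C57BL/6 mice, had been transduced with a vector labelled by GFP, passed through transplantation and were sorted as LSK cells, the lineage-negative, Sca-1-positive and Kit-positive fraction of bone marrow that holds stem and multipotent progenitor cells. The groups were DNMT3A R882H, the recurrent substitution of this methyltransferase in acute myeloid leukaemia, DNMT3A wild type (WT) and empty vector (EV), with 3 arrays each. RNA was read on Agilent 1-colour arrays after amplification of cDNA out of 3.67 ng of total RNA. The sources used here do not give the promoter of the vector, the age of the mice or which cells the hosts kept. Nothing in the labels says that replicates came from separate animals or cultures, and the p-values below cover only the spread among these arrays, part or all of which may be technical.

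Each imprinted domain has a control region that is methylated in one germ line and keeps that mark through the wave of demethylation after fertilisation. The mark is laid down in germ cells chiefly by Dnmt3a with its cofactor Dnmt3l, and is copied at each cell division by Dnmt1 with Uhrf1. On the unmethylated copy a long noncoding RNA, such as Airn or Kcnq1ot1, is often transcribed and silences neighbouring genes on the same chromosome. Several imprinted genes, among them those of the Dlk1-Dio3 domain in the mouse, are known to be expressed in haematopoietic stem cells. The arrays read the sum of both copies and give neither the allele nor the methylation.

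The 250 bases before the RefSeq start of 6 members are printed because the comparisons below turn on them or on their opposite partner in the same domain, and because CG, the dinucleotide that DNMT3A methylates, differs widely in number among them. Capitals mark each CG, read 5′ to 3′ on the strand of the gene, and coordinates are those of build GRCm38.p6. Magel2 (chr7:62376729-62376978, plus strand) and Ube3a (chr7:59228500-59228749, plus strand) belong to the Snrpn-Ube3a domain. Dlk1 (chr12:109452573-109452822, plus strand) and Meg3 (chr12:109540746-109540995, plus strand) belong to the Dlk1-Dio3 domain. Airn (chr17:12741061-12741310, plus strand) and Igf2r (chr17:12769707-12769956, minus strand) belong to the Igf2r-Airn domain, where Airn is transcribed from within Igf2r.
Magel2: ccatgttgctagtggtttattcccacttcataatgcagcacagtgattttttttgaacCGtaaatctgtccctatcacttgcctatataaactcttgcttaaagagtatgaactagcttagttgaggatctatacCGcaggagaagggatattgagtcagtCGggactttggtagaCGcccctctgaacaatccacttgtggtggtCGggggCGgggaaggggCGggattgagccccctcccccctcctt
Ube3a: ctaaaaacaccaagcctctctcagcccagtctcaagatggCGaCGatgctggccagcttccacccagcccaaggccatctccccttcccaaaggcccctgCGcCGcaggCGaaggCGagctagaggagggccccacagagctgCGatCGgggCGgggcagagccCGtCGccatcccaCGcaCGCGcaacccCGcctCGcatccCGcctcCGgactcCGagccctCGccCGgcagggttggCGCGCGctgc
Dlk1: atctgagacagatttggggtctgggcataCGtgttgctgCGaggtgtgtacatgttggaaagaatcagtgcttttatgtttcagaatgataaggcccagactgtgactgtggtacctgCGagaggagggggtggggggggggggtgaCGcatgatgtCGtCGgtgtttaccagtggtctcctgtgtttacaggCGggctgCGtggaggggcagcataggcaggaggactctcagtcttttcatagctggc
Meg3: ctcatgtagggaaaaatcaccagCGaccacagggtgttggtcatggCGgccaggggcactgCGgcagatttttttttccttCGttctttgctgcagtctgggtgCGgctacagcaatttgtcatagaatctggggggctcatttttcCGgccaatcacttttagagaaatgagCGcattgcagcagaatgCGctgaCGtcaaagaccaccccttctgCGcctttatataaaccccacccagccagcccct
Airn: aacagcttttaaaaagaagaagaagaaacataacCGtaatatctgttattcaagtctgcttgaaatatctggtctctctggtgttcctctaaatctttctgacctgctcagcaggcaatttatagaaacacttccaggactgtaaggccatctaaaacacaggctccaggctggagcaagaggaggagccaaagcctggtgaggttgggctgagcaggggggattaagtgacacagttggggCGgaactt
Igf2r: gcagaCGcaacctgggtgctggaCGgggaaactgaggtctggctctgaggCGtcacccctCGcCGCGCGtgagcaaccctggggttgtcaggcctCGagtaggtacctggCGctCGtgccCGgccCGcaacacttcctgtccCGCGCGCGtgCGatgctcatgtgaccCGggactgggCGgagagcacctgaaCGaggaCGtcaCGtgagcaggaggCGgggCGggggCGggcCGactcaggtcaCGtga

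The windows of Igf2r and Ube3a, both broadly expressed, were rich in CG. Igf2r had 27, a number reached by 8.56% of the 32851 RefSeq windows, and Ube3a had 24, reached by 11.98%. Meg3 had 10 (37.8% of windows have as many), Dlk1 8 (43.0%), Magel2 7 (46.3%) and Airn 2 (81.2%). The median window of all genes held 6, and that of the 59 windows of the 40 members in the table held 12. The letters TGCCGC, the core of the motif of the imprint-protecting zinc finger protein ZFP57, were searched on both strands. They were found in 9 of those 59 windows, and in 2850 of all 32851 windows (8.68%). Of the 6 sequences printed, that of Meg3 held them 1 time. A match of these letters is a description and not a binding site.

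Between 53.4% and 64.8% of the probes of an array were well above background, no spot was saturated, and 13120 genes were tested. All 11 LSK and stem cell markers were tested, 9 of them on all 9 arrays. On the first principal component of all genes (29.6% of the variance) EV replicate 3 and WT replicate 3 stood apart at -53.1 and -33.9, where the other arrays lay between -8.39 and 30.0. The EV arrays shared a slide with WT replicate 1, R882H replicates 1 and 2 shared another with WT replicates 2 and 3, and R882H replicate 3 lay alone. R882H and EV therefore never met on a slide. In the deposited value table, 7 of 9 columns held the values of an array other than the one they are named for, 4 of them of another group. In the order of its columns the table held all EV arrays, then all R882H arrays, then all WT arrays, each by replicate number. Groups here follow the labels of the scanner output. The members with the smallest p depend on that choice: by the column names of the table, none of the members named below for a p under 0.05 reached it in the same comparison, and the closing section gives their values.

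Most imprinted genes with a probe were detectable in LSK cells. Of the 48 members with a probe, 34 (70.8%) were tested because every array of some group showed them well above background, against 63.5% of all 20660 genes. They comprised 16 of the paternally and 18 of the maternally expressed members and came from 15 of the 21 domains. On all 9 arrays 27 of the 34 were well above background on their brightest probe (79.4%). Counted by any probe there were 28, against 89.0% of all genes tested. The median signal of the tested members, on the scale of log2 intensity minus the 75th percentile of the array used for all levels below, was -0.23, against 0.23 for all genes tested.

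**Figure D1:**
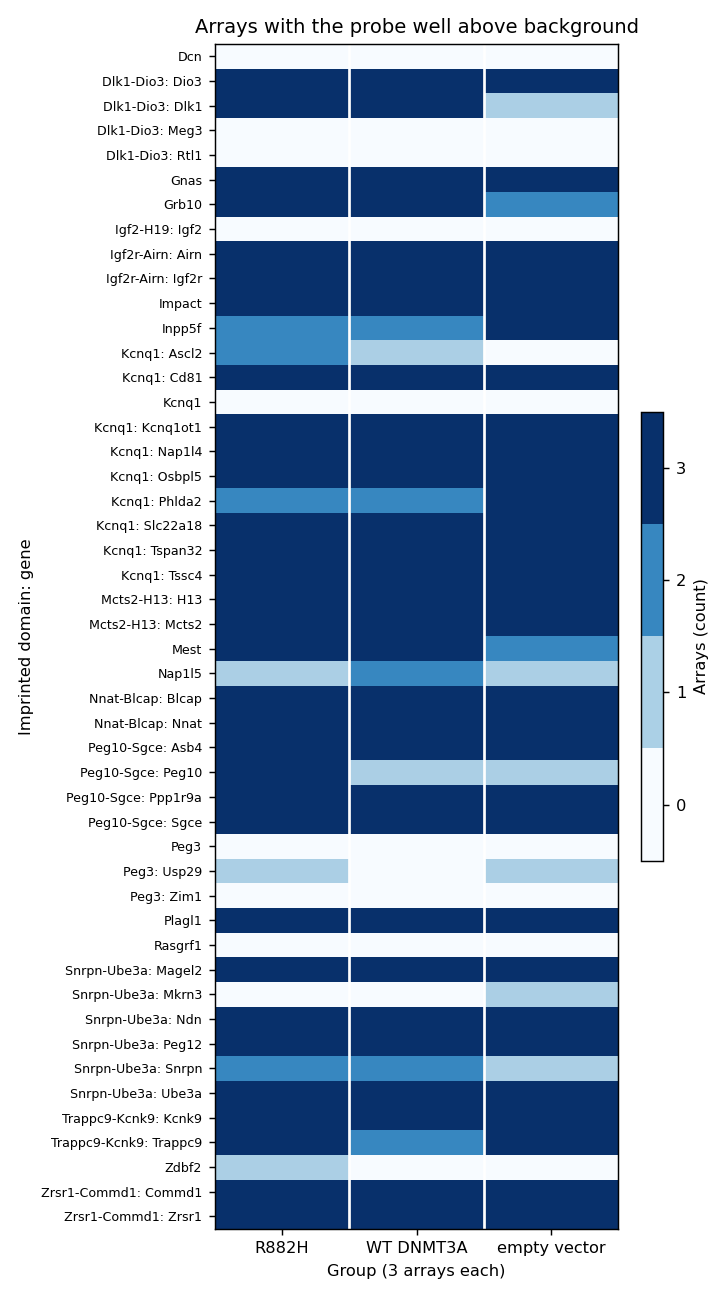
Number of arrays in each group (columns R882H, WT DNMT3A and empty vector, 3 arrays each) on which the brightest probe of each of 48 imprinted genes was well above background, darker for more arrays. Rows are genes after the name of their domain; 27 of the 34 tested genes are dark in every group, and 8 genes were detected on no array.

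No array detected Dcn, Rtl1, Meg3, Igf2, Kcnq1, Zim1, Peg3 or Rasgrf1, whose values lay between -6.37 and -3.89. Igf2, the fetal growth factor, and Meg3, the maternally expressed RNA of the Dlk1-Dio3 domain, are 2 of the best-known imprinted transcripts. Meg3 had 3 probes, and none was well above background on any array. The brightest of them read -5.45, -4.74 and -4.27 with R882H, -4.63, -4.70 and -4.16 with WT, and -4.75, -5.14 and -4.01 with EV. These values have only an upper bound and bear no order. Another 6 members were detected on some arrays but on all 3 of no group and were not tested. Ascl2, a transcription factor of the Kcnq1 domain, was detected on 2 R882H arrays, 1 WT array and no EV array, and Snrpn, which encodes a splicing protein, on 2, 2 and 1. The rest were Nap1l5, Usp29, Mkrn3 and Zdbf2. No member was tested in the Dcn, Igf2-H19, Nap1l5, Peg3, Rasgrf1 and Zdbf2 domains. Fewer expressing cells and less RNA per cell cannot be told apart in these sorted populations.

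Comparing R882H with EV shows how the imprinted genes of cells with the mutant enzyme stood against cells with the vector alone. Of 34 members, 26 read higher with R882H and 8 lower, with a median log2 fold change of 0.24, against -0.02 over all genes, of which 48% read higher. None passed the adjusted threshold with limma, and neither did any of the 13120 genes (percent called 0). At an unadjusted p under 0.05 stood 4 members, all higher, against 9.02% of all genes, 5.56% higher and 3.47% lower. They were Magel2, Dlk1, Peg10 and Airn, all expressed from the paternal copy. R882H and EV arrays did not overlap for 11 members on the higher side (9.50% of all genes) and 2 on the lower side (8.77% of all genes).

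**Figure D2:**
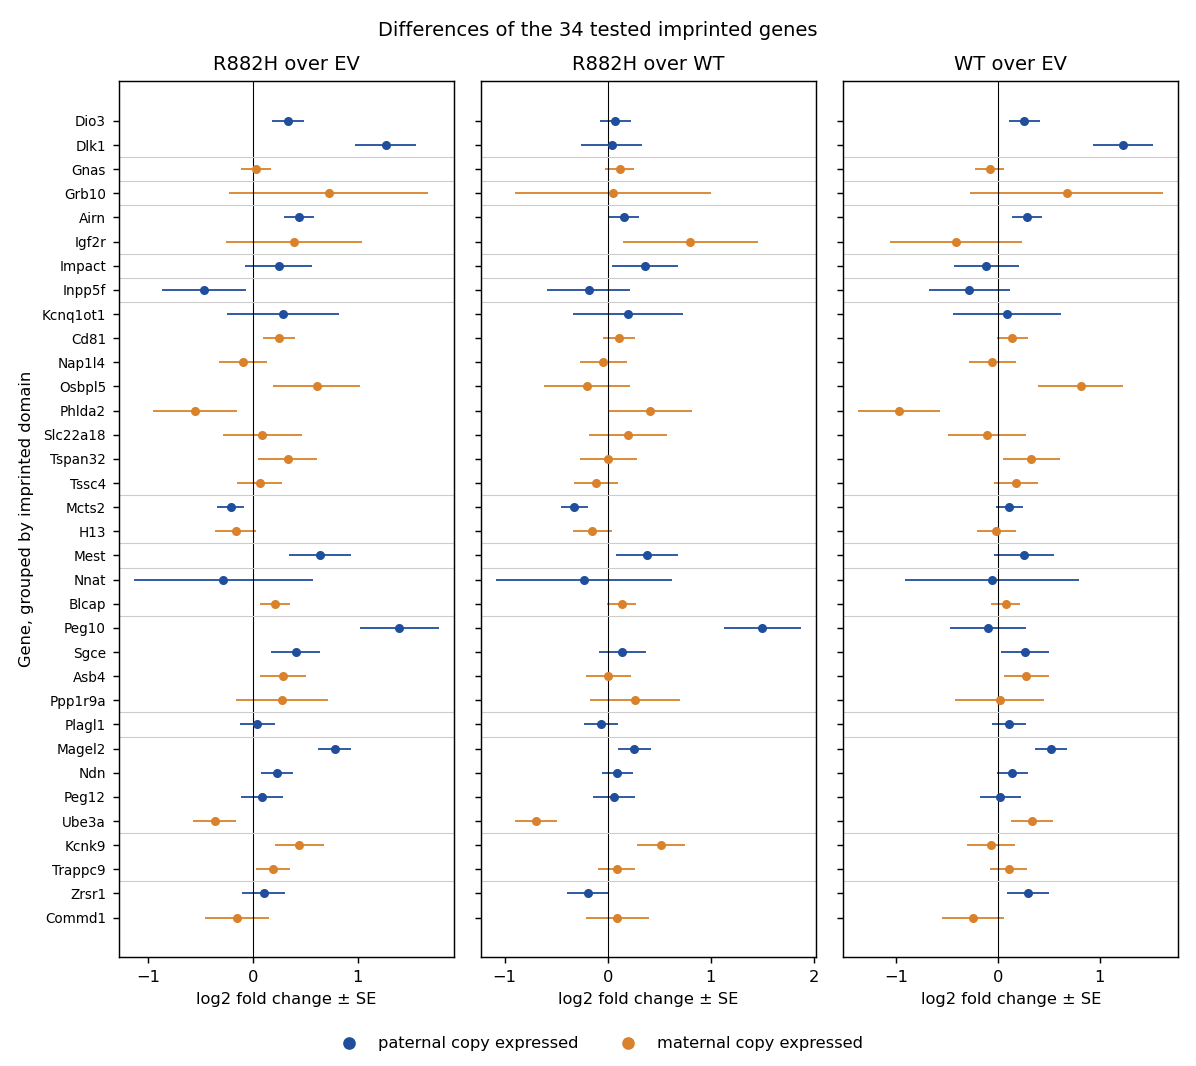
Log2 fold change of the 34 tested imprinted genes in the comparisons R882H over EV, R882H over WT and WT over EV, with bars of 1 standard error from limma, blue for paternally and orange for maternally expressed genes, and grey lines between domains. Between R882H and EV 26 of 34 genes lie above 0, and no gene passed the adjusted threshold in any comparison.

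Magel2, a MAGE family protein that works with ubiquitin ligases and is paternally expressed in the Snrpn-Ube3a domain, had the smallest p of the members. It read -0.61, -0.78 and -0.99 on the R882H arrays, -1.19, -0.97 and -1.0 on the WT arrays, and -1.72, -1.51 and -1.50 on the EV arrays. Every R882H and WT array stood above every EV array, while R882H and WT overlapped. The log2 difference between R882H and EV was 0.78 ± 0.16 (SE), or 1.72-fold, with a limma p of 0.000875 before and 0.302 after adjustment over all genes. It was 0.92 without number 3 of every group and 0.47 after normexp background correction. Of its tested neighbours in the domain, the MAGE gene Ndn differed by 0.23 ± 0.15 with no overlap, at -0.71 ± 0.06 with R882H and -0.95 ± 0.07 with EV (SD, n = 3 each). Peg12, the next of the cluster, differed by 0.09 ± 0.20, and 1 of its 2 detected probes had the opposite sign.

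Dlk1, a membrane protein with EGF repeats related to Notch ligands, read -2.20, -2.57 and -2.74 with R882H, -2.51, -2.46 and -2.65 with WT, and -3.17, -4.41 and -3.74 with EV. Both enzyme groups lay above all EV arrays, and the probe was well above background on all R882H and WT arrays but on 1 EV array. The difference between R882H and EV was 1.27 ± 0.29 log2 units (2.41-fold), with a limma adjusted p of 0.382. After normexp with its offset of 50, which compresses dim probes, it was 0.26. The second Dlk1 probe was not well above background on any array. In the same domain Dio3, the deiodinase that inactivates thyroid hormone, read -0.60, -0.62 and -0.73 with R882H, -0.92, -0.76 and -0.50 with WT, and -1.07, -0.96 and -0.92 with EV. R882H and EV did not overlap, and the difference was 0.33 ± 0.15 (limma adjusted p = 0.558). Mirg, a maternally expressed microRNA host RNA of the domain that is not among the 50, differed by 0.33 ± 0.18. Wdr25, a tested gene next to Dlk1 in the order of GRCm38.p6, differed by 0.27 ± 0.38.

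Airn, the long noncoding RNA that silences the paternal Igf2r copy, read 1.84, 1.81 and 1.54 with R882H, 1.57, 1.62 and 1.52 with WT, and 1.36, 1.32 and 1.18 with EV. The groups of R882H and EV did not overlap, and neither did WT and EV. The difference of R882H from EV was 0.44 ± 0.14 (1.36-fold, limma adjusted p = 0.518). Its second probe was not well above background on any array. Igf2r itself, the receptor that clears IGF2 and sorts lysosomal enzymes, is maternally expressed and read 0.13, 0.87 and -1.10 with R882H, -0.76, -0.42 and -1.32 with WT, and -0.25, 0.71 and -1.73 with EV. All groups overlapped, replicate 3 was the lowest of each, and R882H differed from EV by 0.39 ± 0.65. The sources used here do not state the labelled strand, so where transcripts overlap, as Airn and Igf2r do, their signals cannot be told apart with certainty.

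**Figure D3:**
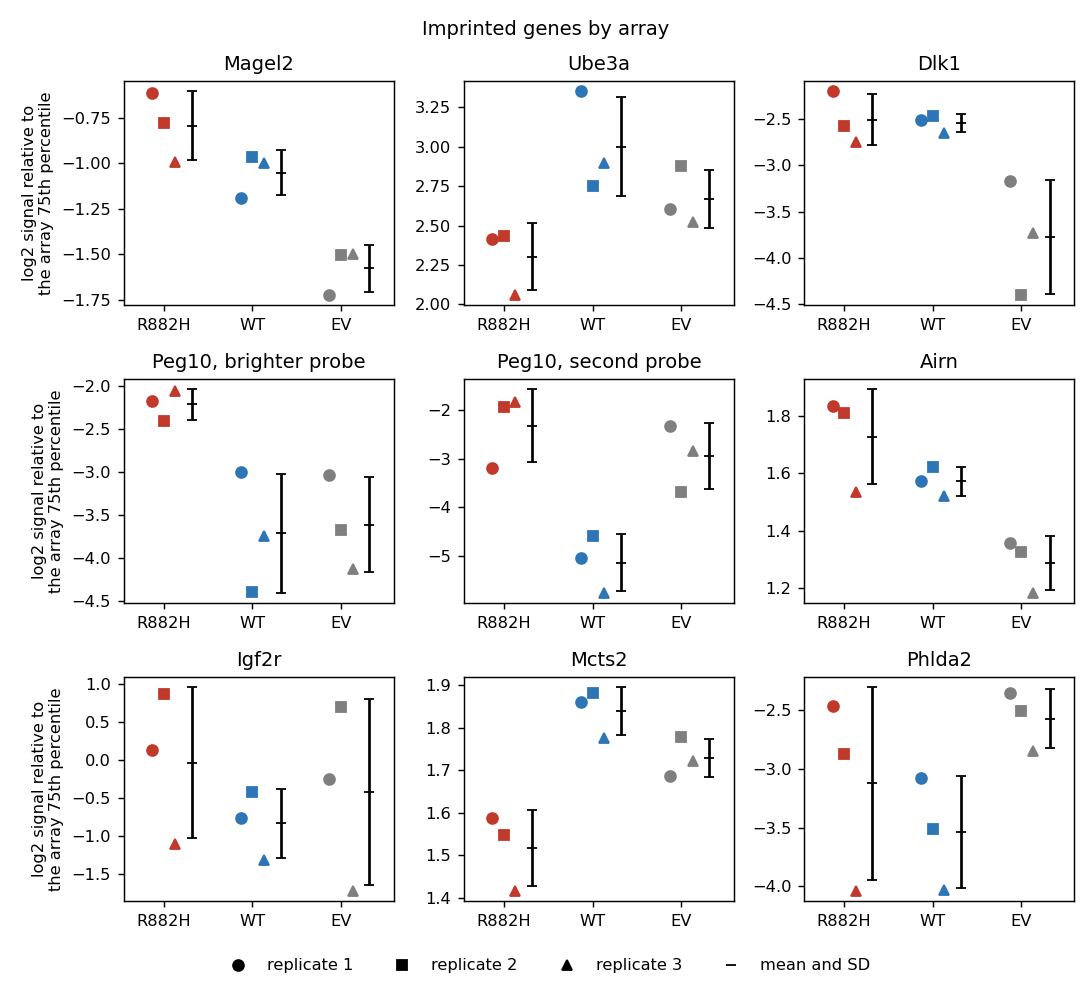
Log2 signal relative to the 75th percentile of the array (vertical axes differ) for Magel2, Ube3a, Dlk1, both probes of Peg10, Airn, Igf2r, Mcts2 and Phlda2, in columns R882H, WT and EV, with 1 symbol per array shaped by replicate number and bars for the mean and SD. R882H lies above all EV arrays for Magel2, Dlk1, Airn and the brighter Peg10 probe, and below all WT arrays for Ube3a and Mcts2.

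By the brightest probe of each gene, Peg10 alone of the 34 tested members had R882H arrays above both other groups. It is a retrotransposon-derived gene with gag and pol-like frames that the mouse placenta needs. Its brighter probe read -2.17, -2.40 and -2.06 with R882H, -3.00, -4.39 and -3.74 with WT, and -3.03, -3.67 and -4.13 with EV. It was well above background on all R882H arrays, on 1 WT array and on 1 EV array. R882H differed from EV by 1.40 ± 0.37 (2.64-fold, limma adjusted p = 0.458). The second probe read -3.19, -1.93 and -1.84 with R882H, -5.05, -4.59 and -5.77 with WT, and -2.33, -3.68 and -2.85 with EV, so that R882H and EV overlapped on it. With the mean of both probes the difference from EV was 1.01, after normexp 0.42 and with slide as a block 2.39. Sgce, a sarcoglycan gene that starts beside Peg10 in opposite direction, stood at 0.41 ± 0.23. The maternally expressed members of the domain were Ppp1r9a, which encodes an actin-binding scaffold, at 0.28 ± 0.44, and Asb4, a ubiquitin ligase adaptor, at 0.29 ± 0.22.

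The other members had an unadjusted p above 0.05. Mest, a hydrolase-fold gene used as a marker of paternal expression, averaged -2.13 ± 0.19 with R882H and -2.77 ± 0.34 with EV (SD, n = 3 each), a difference of 0.64 ± 0.30 with no overlap. This brightest probe was well above background on 2 EV arrays, and the second detected Mest probe differed by 0.18 with overlap. Kcnk9, a potassium channel gene, differed by 0.44 ± 0.23 and the vesicle transport gene Trappc9, on its brighter probe, by 0.19 ± 0.16, both without overlap. Cd81, a tetraspanin gene of the Kcnq1 domain, read 3.95, 4.03 and 3.97 with R882H, 3.87, 4.04 and 3.71 with WT, and 3.79, 3.87 and 3.52 with EV. R882H and EV did not overlap, and differed by 0.25 ± 0.16 (limma adjusted p = 0.608). Blcap, which encodes a small membrane protein, read 7.08, 7.10 and 7.30 with R882H, 7.15, 6.86 and 7.06 with WT, and 6.91, 6.98 and 6.95 with EV. Its difference of 0.21 ± 0.14 also came without overlap (limma adjusted p = 0.633). For Gnas, which encodes the stimulatory G protein subunit, the values were 4.71, 4.86 and 4.83 with R882H, 4.78, 4.61 and 4.67 with WT, and 4.89, 4.82 and 4.59 with EV. On this brightest of 3 detected probes the groups overlapped fully, with a difference of 0.03 ± 0.14. The second probe differed by 0.38 with overlap. The third differed by 0.57, with its R882H arrays above all EV and all WT arrays.

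In the Kcnq1 domain 6 of 8 tested members read higher with R882H than with EV and 2 lower. The lowest was Phlda2, given in full below, at -0.55 ± 0.40. Kcnq1ot1, the silencing RNA of the domain, differed between R882H and EV by 0.29 ± 0.53. Of the members of this domain listed as maternally expressed, the sterol-binding gene Osbpl5 differed by 0.61 ± 0.42 and the blood cell tetraspanin Tspan32 by 0.33 ± 0.28. The transporter Slc22a18 stood at 0.09 ± 0.38, Tssc4 at 0.06 ± 0.22 and the histone chaperone gene Nap1l4 at -0.10 ± 0.23. Grb10, an inhibitory adaptor of insulin receptors, differed by 0.73 ± 0.95, with EV replicate 3 at -5.89 and the other EV arrays at -3.08 and -1.51. The zinc finger gene Plagl1, read by 4 detected probes, differed by 0.04 ± 0.17 on the brightest. Impact, a brake on the translation regulator GCN2, differed by 0.25 ± 0.32, the lipid phosphatase gene Inpp5f by -0.47 ± 0.40 and the proteolipid gene Nnat by -0.28 ± 0.86. On the brightest probes none of these groups was free of overlap. On the second probes of Plagl1 and Impact, R882H differed from EV by 0.50 and -0.43, both without overlap.

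By the parental copy listed for each gene, 13 of 16 paternally expressed members read higher with R882H than with EV, with a median of 0.27. Of the maternally expressed ones 13 of 18 did, with a median of 0.20. The copy was not read in these cells, and Ube3a, expressed from both copies in most cells other than neurons, counts as maternal here. All 4 members with an unadjusted p under 0.05 were among the 16. The 2 tested members whose control region is methylated in sperm, Dlk1 and Dio3, stood at 1.27 and 0.33. The 32 with control regions methylated in oocytes had a median of 0.22. Neither the split by copy nor that by germ line was tested. Of 13 members with at least 2 detected probes, 11 had the same sign on all of them, the exceptions being Impact and Peg12.

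Signal level moved with the direction of the differences. In 5 equal bins of mean signal, from dim to bright, the median difference of all genes between R882H and EV was 0.21, 0.08, -0.02, -0.09 and -0.11. The members in those bins numbered 7, 9, 4, 7 and 7 and had medians of 0.64, 0.29, 0.34, 0.04 and 0.21. The 7 members not detected on all 9 arrays (Dlk1, Peg10, Mest, Grb10, Inpp5f, Phlda2 and Trappc9) had a median of 0.64. The filter let a gene pass through 1 group alone, as Peg10 did through R882H, and Inpp5f and Phlda2 through EV. Dlk1, Mest and Grb10 passed through both R882H and WT. Trappc9 passed through R882H and EV, with 1 WT spot left out as an outlier. With the 27 detected on all 9, 21 read higher and 6 lower with a median of 0.23. The part of signal level in these differences was not tested.

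**Figure D4:**
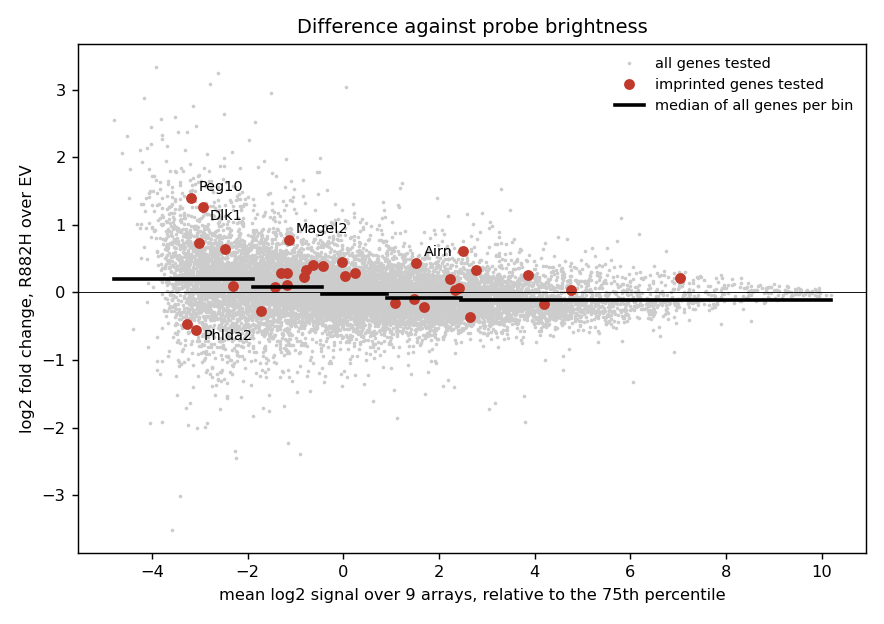
Log2 fold change between R882H and EV (vertical) against the mean log2 signal over 9 arrays (horizontal), grey for all 13120 genes and red for the 34 imprinted genes, with black lines for the median of all genes in 5 equal bins. The medians of all genes run between 0.21 in the dimmest bin and -0.11 in the brightest, and Peg10 and Dlk1 lie at the dim end.

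The array on which the shift leaned most was EV replicate 3, which stood apart on the first component. Without it the median over the tested members was 0.13, and without number 3 of every group it was 0.15. Scaling by the array median instead of the 75th percentile placed all genes at a median of -0.17 and the members at 0.08. Summed markers of other cells also differed between the groups. The summed linear signal of 5 B cell markers was 3.20 to 9.65 with R882H, 1.1 to 4.69 with WT and 1.42 to 2.12 with EV, and of its tested markers Vpreb1 differed between R882H and EV by 3.04, Cd79a by 2.64 and Cd79b by -0.17 log2 units. That of 8 stromal markers was 2.82 to 3.56 with R882H, 3.11 to 3.29 with WT and 1.72 to 2.77 with EV, where Lum and Pdgfra were on no array. For 5 megakaryocyte markers it was 8.26 to 25.3, 2.93 to 5.62 and 3.49 to 13.5 in the same order, and for 5 granulocyte and monocyte markers 110 to 225, 201 to 424 and 166 to 533. LSK and stem cell markers summed to 73.2 to 90.1 with R882H, 63.4 to 92.7 with WT and 51.6 to 92.7 with EV. Sums of 4 endothelial markers, with Cdh5 on no array, were 5.55 to 6.53 with R882H, 4.35 to 6.53 with WT and 4.61 to 5.38 with EV. Those of 3 T cell markers, with Cd3d on no array, were 0.781 to 0.971 with R882H, 0.594 to 1.02 with WT and 0.729 to 0.742 with EV. The sums of B cell, stromal, endothelial and T cell markers thus lay higher on all R882H than on all EV arrays, and those of the megakaryocyte markers higher on all R882H than on all WT arrays. The part of these cells in the values of the imprinted genes was not tested.

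Setting R882H against WT compares the substitution with the same enzyme unmutated. Of 34 members 24 read higher and 10 lower, with a median of 0.09, against -0.01 over all genes, of which 48.3% read higher. The comparison shares its R882H arrays with the one above. With limma none of the members and none of the 13120 genes passed (percent called 0). At an unadjusted p under 0.05 stood 1 member on the higher and 2 on the lower side, against 8.01% of all genes, 3.67% higher and 4.34% lower. Arrays did not overlap for 1 member on the higher side (6.79% of all genes), Peg10, and for 3 on the lower side (8.62% of all genes), Ube3a, Mcts2 and Zrsr1.

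Peg10, with the values given above, differed by 1.50 ± 0.37 (2.83-fold, limma adjusted p = 0.488). It was tested because all R882H arrays detected it, and only 1 WT array did, so the fold rests on values near background in WT. Among the 27 members detected on all 9 arrays, none on the higher and 2 on the lower side had an unadjusted p under 0.05. Its second probe was not well above background on any WT array, and on it R882H was at least 2.96-fold higher. On the slide that both groups shared, the brighter probe read -2.17 and -2.40 on the R882H arrays and -4.39 and -3.74 on the WT arrays. After normexp the difference was 0.43.

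Ube3a, the ubiquitin ligase expressed from the maternal copy in neurons and from both in most other cells, stood on the other side. It read 2.42, 2.44 and 2.06 with R882H, 3.35, 2.75 and 2.90 with WT, and 2.60, 2.88 and 2.52 with EV. All R882H arrays lay below all WT and all EV arrays. R882H differed from WT by -0.70 ± 0.20 (0.617-fold, limma adjusted p = 0.554) and from EV by -0.36 ± 0.20 (limma adjusted p = 0.581). On the shared slide the values were 2.42 and 2.44 with R882H and 2.75 and 2.90 with WT, and with slide as a block the difference was -0.40. The tested gene on its other side, Atp10a, stood at -0.08 ± 0.35 between R882H and WT and at 0.09 ± 0.35 between R882H and EV.

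Mcts2, a paternally expressed retrogene inside H13, read 1.59, 1.55 and 1.42 with R882H, 1.86, 1.88 and 1.78 with WT, and 1.69, 1.78 and 1.72 with EV. R882H again lay below both other groups without overlap. The difference from WT was -0.32 ± 0.13 (0.80-fold, limma adjusted p = 0.597) and that from EV -0.21 ± 0.13. Mcts2 has a close relative in its parent gene Mcts1, and the probe sequences were not used here, so cross-hybridisation cannot be told apart. H13, which encodes signal peptide peptidase, read 4.03, 3.88 and 4.38 with R882H, 4.17, 4.10 and 4.47 with WT, and 4.25, 4.07 and 4.47 with EV. Its groups overlapped, with differences of -0.15 ± 0.19 from WT and -0.17 ± 0.19 from EV. Zrsr1, a retrogene related to a splicing factor, differed from WT by -0.19 ± 0.20, and its host Commd1 by 0.09 ± 0.30.

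Among the remaining members, Kcnk9 differed between R882H and WT by 0.51 ± 0.23 and Igf2r by 0.80 ± 0.65, both with overlap. Magel2, Dlk1, Dio3 and Airn, which lay above EV, stood at 0.26 ± 0.16, 0.04 ± 0.29, 0.07 ± 0.15 and 0.16 ± 0.14 from WT. The median was 0.08 over paternally and 0.09 over maternally expressed members. In the bins of mean signal the median of all genes was 0.13, 0.05, -0.03, -0.08 and -0.07 from dim to bright. Scaled by the array median, all genes had a median of -0.11 and the members one of -0.0011.

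WT was then compared with EV, the unmutated enzyme with the vector alone. It shares its EV arrays with the R882H comparison. Of 34 members 22 read higher and 12 lower, with a median of 0.11, against 0.01 over all genes, of which 51.7% read higher. None of the members and none of the 13120 genes passed with limma (percent called 0). At an unadjusted p under 0.05 stood 2 members higher and 1 lower, against 5.95% of all genes, 3.50% higher and 2.45% lower. Arrays did not overlap for 4 members on the higher side (5.69% of all genes), Dlk1, Magel2, Airn and Dio3, and for 1 on the lower side (4.37% of all genes), Phlda2.

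Dlk1 differed between WT and EV by 1.23 ± 0.29 (2.35-fold, limma adjusted p = 0.695) and Magel2 by 0.52 ± 0.16 (1.44-fold, limma adjusted p = 0.767). On the slide that held EV and WT replicate 1, Dlk1 read -2.51 with WT and -3.17, -4.41 and -3.74 with EV, and Magel2 -1.19 with WT and -1.72, -1.51 and -1.50 with EV. For Airn and Dio3 the differences were 0.29 ± 0.14 and 0.26 ± 0.15. After normexp the difference of Dlk1 was 0.19.

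Phlda2, a pleckstrin homology protein that restrains growth of the mouse placenta and is maternally expressed in the Kcnq1 domain, read -2.46, -2.87 and -4.04 with R882H, -3.08, -3.51 and -4.03 with WT, and -2.35, -2.51 and -2.85 with EV. All WT arrays lay below all EV arrays, while R882H overlapped with both. WT differed from EV by -0.97 ± 0.40 (0.511-fold, limma adjusted p = 0.811) and R882H from EV by -0.55 ± 0.40. The probe was well above background on 2 R882H, 2 WT and 3 EV arrays, so that it was tested through the EV arrays, where it was high. Among the 27 members detected on all 9 arrays 1 had an unadjusted p under 0.05 on the higher side, Magel2, and none on the lower. After normexp the difference between WT and EV was -0.26. Osbpl5 of the same domain stood at 0.81 ± 0.42 with overlap, and Slc22a18 and Nap1l4, the neighbours of Phlda2, at -0.11 ± 0.38 and -0.05 ± 0.23.

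Further imprinted genes and the factors that keep imprints were read beside the members. Of 30 other imprinted genes 17 were tested. Between R882H and EV 12 of them read higher and 5 lower with a median of 0.09, and none had an unadjusted p under 0.05. Between R882H and WT the counts were 10 higher and 7 lower (median 0.04), and between WT and EV 11 and 6 (median 0.10). Of 22 factors that set or keep imprints 19 were tested. Of these 8 read higher and 11 lower between R882H and EV (median -0.05), 7 and 12 between R882H and WT (median -0.08), and 12 and 7 between WT and EV (median 0.09). Dnmt1, the maintenance methyltransferase, was the 1 factor with an unadjusted p under 0.05, at -0.35 between WT and EV, and none passed the adjusted threshold with limma.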

How the data were processed

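Per the file headers, spots were read by Agilent Feature Extraction 10.10.1.1, and probe positions are on mouse build mm9. The deposited intensity of a spot is linear and had its background subtracted and a spatial trend removed by this program, per the file headers. The deposited value table holds log2 values whose making is not described by the submitters, and matching its columns to the arrays showed processed signal minus the 75th percentile of the array, centred on each probe. The column medians were 0 except for 1 of -0.00227. It served only as an alternative setting.

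From these, log2 intensity minus the array's 75th percentile was computed, outlier spots (154 to 184 an array) were left out and spots of a probe were averaged. Of 55681 probes, 27235 received a symbol through the RefSeq gene table. Probes had to be well above background on all 3 arrays of a group, and the brightest stood for its gene. One spot of Trappc9 on WT replicate 3 was an outlier, so that n = 2 there. All 9 arrays were fitted with limma 3.58.1 (lmFit and eBayes, R 4.3.3) with Benjamini-Hochberg adjustment over 13120 genes, and the fit was tested on simulated data. An exact permutation test of 3 against 3 arrays cannot go below p = 0.1 (two-sided). The number of arrays limits the precision. For a probe dim on every array of a group, the bound averages, over the arrays, the larger of the probe's signal and the dimmest signal called well above background.

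The members, lists and tests were chosen with earlier results of these data known. Given in every array were, per comparison, up to 6 members with the smallest p among those under 0.05 unadjusted, the 4 members with the highest mean signal, and any detected on all arrays of 1 group and none of another, of which there was none. Dio3, Igf2r and Meg3 were given in every array too, to show their domains, and were chosen after their values were seen. Same-numbered arrays of WT and EV deviated together (r = 0.116, 0.222 and 0.325, all over 0.1), a pairing taken from the data and not from the labels. For R882H with EV (0.0884, 0.198 and 0.279) and with WT (0.0714, 0.137 and 0.239) 1 pair each fell short. Alternatives were normexp on the median signal (offset 50), array median, quantile and cyclic loess scaling, other probe filters, replicate and slide blocks, fits of 2 groups, the value table and leaving out arrays. Leaving out number 3 of every group was chosen after seeing the data. Promoters are RefSeq's, on GRCm38.p6.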

Additional observations from a re-analysis of the deposited data

How the results depend on the processing

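No member passed the adjusted threshold under any setting, and no gene named by p had the opposite sign under any. The median over members between R882H and EV, 0.24, was 0.17 with normexp, 0.085 with the array median, 0.13 without a filter on dim probes, 0.41 with slide as a block, 0.15 without number 3 of every group (chosen after seeing the data) and 0.027 with the value table. Leaving out 1 array gave 0.13 (without EV replicate 3) to 0.28. Between R882H and WT, 0.09, it was -0.0011 with the array median and 0.16 with slide as a block. Between WT and EV, 0.11, it was 0.22 with slide as a block and -0.024 with the value table. Fitted only with probes well above background on all 9 arrays, 28 members remained. Of these 2 had an unadjusted p under 0.05 between R882H and EV (8.49% of all genes there). With slide as a block 1 member did (5.82%), against 4 in the main fit (9.02%). Between WT and EV such members numbered 1 with the filter of all 9 arrays (5.51%), against 3 (5.95%). They numbered 2 to 5 when 1 array was left out (5 without WT replicate 1). The slide block links EV to the rest through WT replicate 1 alone.

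With replicate number as a block, members with an unadjusted p under 0.05 were 7 between R882H and EV (13.6% of all genes) and 5 between R882H and WT (11.3%), where the numbers are not taken to pair the arrays. Between WT and EV they were 4 (8.19%).

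By the column names of the value table, Magel2 stood at 0.54, Dlk1 at 0.70, Peg10 at 0.49 and Airn at 0.20 between R882H and EV, with limma p before adjustment of 0.0531, 0.202, 0.443 and 0.351. There 5 members other than these had an unadjusted p under 0.05 (4.68% of all genes). Between R882H and WT the table gave Peg10 0.83, Ube3a -0.10 and Mcts2 -0.15 with a median of 0.07, and between WT and EV Dlk1 0.56, Magel2 0.44 and Phlda2 -0.30, all with an unadjusted p above 0.05. Which members are called thus depends on which labels are right. In column order the table held the arrays sorted by their scanner labels, by group and then by replicate number. Why its column names run in another order, and which labels are right, was not tested. Dim probes limit Dlk1, Peg10 and Phlda2, which are not among the 27. Over the settings the adjusted p of Magel2 between R882H and EV ran between 0.248 and 0.996.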

Other observations

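Several members that were detected on some arrays only had 1 array far from the rest; they were singled out after their values were seen and are given as values only. Snrpn read -1.18 on WT replicate 2, while the other arrays lay between -5.78 and -3.00. Mkrn3, a ubiquitin ligase gene of the same domain, read -2.62 on EV replicate 2 and was at -5.05 or lower on every other array. Usp29, a protease gene of the Peg3 domain, read -3.07 on R882H replicate 3 and -3.27 on EV replicate 1, and the other arrays lay at -4.86 or lower. Nap1l5 spanned -5.20 to -1.82, with both ends among the WT arrays.

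The 4 detected probes of Plagl1 did not show a common pattern between WT and EV. From brightest to dimmest they differed by 0.11, 0.45, -0.85 and -1.29, and between R882H and WT by -0.06, 0.05, 1.02 and 1.45. The transcripts that these probes read were not used here.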
